A study of Mus musculus with 25 samples.

Results

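ATP-binding cassette (ABC) transporter genes were followed in mouse livers inflamed by concanavalin A (ConA) and treated with BW245C. Members were the genes whose RefSeq symbol starts with Abc, a subfamily letter and a number, other than Abcb11, Abca1 and Abcg1. A member also had to have a probe well above background on at least 5 of 25 arrays. These conditions were met by 39 of 46 such genes, among 15104 genes tested in all. The 7 that failed were Abca4, Abca12, Abca13, Abca14, Abca15, Abcb5 and Abcc12. These conditions use no measured difference between groups, but they were set with earlier results of these data known. All but 3 members were well above background on 25 arrays. The exceptions were Abca9 on 24, Abcg4 on 18 and Abcg3 on 13, and Abcg3 passed through untreated and 24 hr arrays.

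All mice were female and of the strain C57BL/6NcrSlc. One group received 10 mg/kg ConA and then, 15 min later, an intraperitoneal injection of 1 mg/kg BW245C, and its livers were taken at 3 hr. The second received 10 mg/kg ConA and vehicle on the same schedule, also taken at 3 hr. The third and the fourth received ConA + BW245C and ConA + vehicle in the same way and were taken at 24 hr. The last group was untreated, with no vehicle, injection or time stated. In differences from it, ConA, vehicle and injection cannot be told apart. Each group held 5 mice with 1 array per mouse, and BW245C activates DP1, through which prostaglandin D2 signals. ConA, a lectin from the jack bean, stimulates T cells and causes hepatitis in mice. Whole liver RNA was measured, so that fewer cells of a type and less RNA per cell cannot be told apart.

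ABC proteins use ATP to move lipids, sterols, bile salts, drugs, peptides and haem precursors across membranes. In hepatocytes some of them sit in the canalicular membrane and form bile, others export conjugates back to the blood, and still others serve peroxisomes, mitochondria and lysosomes. The E and F subfamilies have no membrane part and act in translation.

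The start regions of a few members are shown because these genes are neighbours that moved in opposite or in the same directions. Abcb1a, Abcb1b and Abcb4 lie side by side on chromosome 5. Abcb1b was higher, and Abcb1a and Abcb4 were lower, at 24 hr after ConA. The 250 bases before the annotated start are given 5′ to 3′ from RefSeq (GRCm38.p6), for Abcb1b at chr5:8797897-8798146 and for Abcb1a at chr5:8566841-8567090, both on the + strand. Capitals mark CCAAT, the GC box GGGCGG and the TATA box TATAAA, each searched on both strands.

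Abcb1b: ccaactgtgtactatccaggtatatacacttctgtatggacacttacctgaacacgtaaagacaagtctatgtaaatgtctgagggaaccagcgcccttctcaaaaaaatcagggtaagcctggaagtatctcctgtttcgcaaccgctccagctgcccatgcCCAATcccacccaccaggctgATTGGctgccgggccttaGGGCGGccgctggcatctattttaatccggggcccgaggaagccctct

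Abcb1a: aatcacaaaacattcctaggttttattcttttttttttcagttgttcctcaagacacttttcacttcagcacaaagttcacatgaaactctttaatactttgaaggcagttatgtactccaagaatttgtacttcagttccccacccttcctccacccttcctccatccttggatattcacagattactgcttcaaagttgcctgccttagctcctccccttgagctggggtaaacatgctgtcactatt

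The Abcb1b window held CCAAT on each strand, beginning 87 and 66 bases before the start, and the GC box beginning 48 bases before it. None of these letters was found in the Abcb1a window. The window of Abcb4, which was lower as Abcb1a was, also held CCAAT and the GC box. These motifs were therefore not limited to the neighbour that was higher. CCAAT was present in 33.8% of the 32851 windows of this length in the RefSeq table, the GC box in 32.7% and the TATA box in 12.4%. The table held 28 of the 39 members, of which 9 had CCAAT, 16 the GC box and 3 the TATA box.

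Abcg5 and Abcg8 lie head to head on chromosome 17, and both were lower at 24 hr after ConA. The 109 bases between the Abcg5 start and the Abcg8 start, at chr17:84683012-84683120, are printed on the + strand, the strand of Abcg8, with the same motifs in capitals.

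Abcg5 and Abcg8: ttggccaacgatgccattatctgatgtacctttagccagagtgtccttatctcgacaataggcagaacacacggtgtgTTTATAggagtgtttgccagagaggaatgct

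The only motif found there was a TATA box on the strand of Abcg5. RefSeq lists another start of Abcg8 within the span of the Abcg5 gene. A match is a description of the letters and not a binding site.

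Levels are given as the log2 scaled signal, that is, the log2 processed signal of a probe less the 75th percentile on its array. A value belongs to 1 probe and is set only against the same probe in other groups. A change is the difference of group means in a limma fit over all 25 arrays, given with its standard error, and counts as called where p, adjusted over 15104 genes, was under 0.05. The p-values measure the spread between mice. Between 52.2% and 61.6% of the spots of an array were well above background and none was saturated. The number of arrays limits the precision. All 8 hepatocyte markers looked for, among them albumin (Alb), were well above background on all 25 arrays. The arrays lay on 5 slides, and slides and groups were entangled. On slide 1 there were 4 untreated arrays beside 1 ConA + vehicle array of 3 hr. Slide 2 held 1 untreated array, 2 ConA + vehicle arrays of 3 hr and 1 ConA + BW245C array of 24 hr. Slide 3 carried the 5 ConA + BW245C arrays of 3 hr together with 2 ConA + vehicle arrays of that time and 1 of 24 hr. Slide 4 carried 3 ConA + BW245C and 4 ConA + vehicle arrays of 24 hr. ConA + vehicle arrays of 24 hr shared no slide with untreated ones, so that comparison has no value within a slide.

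**Figure D1:**
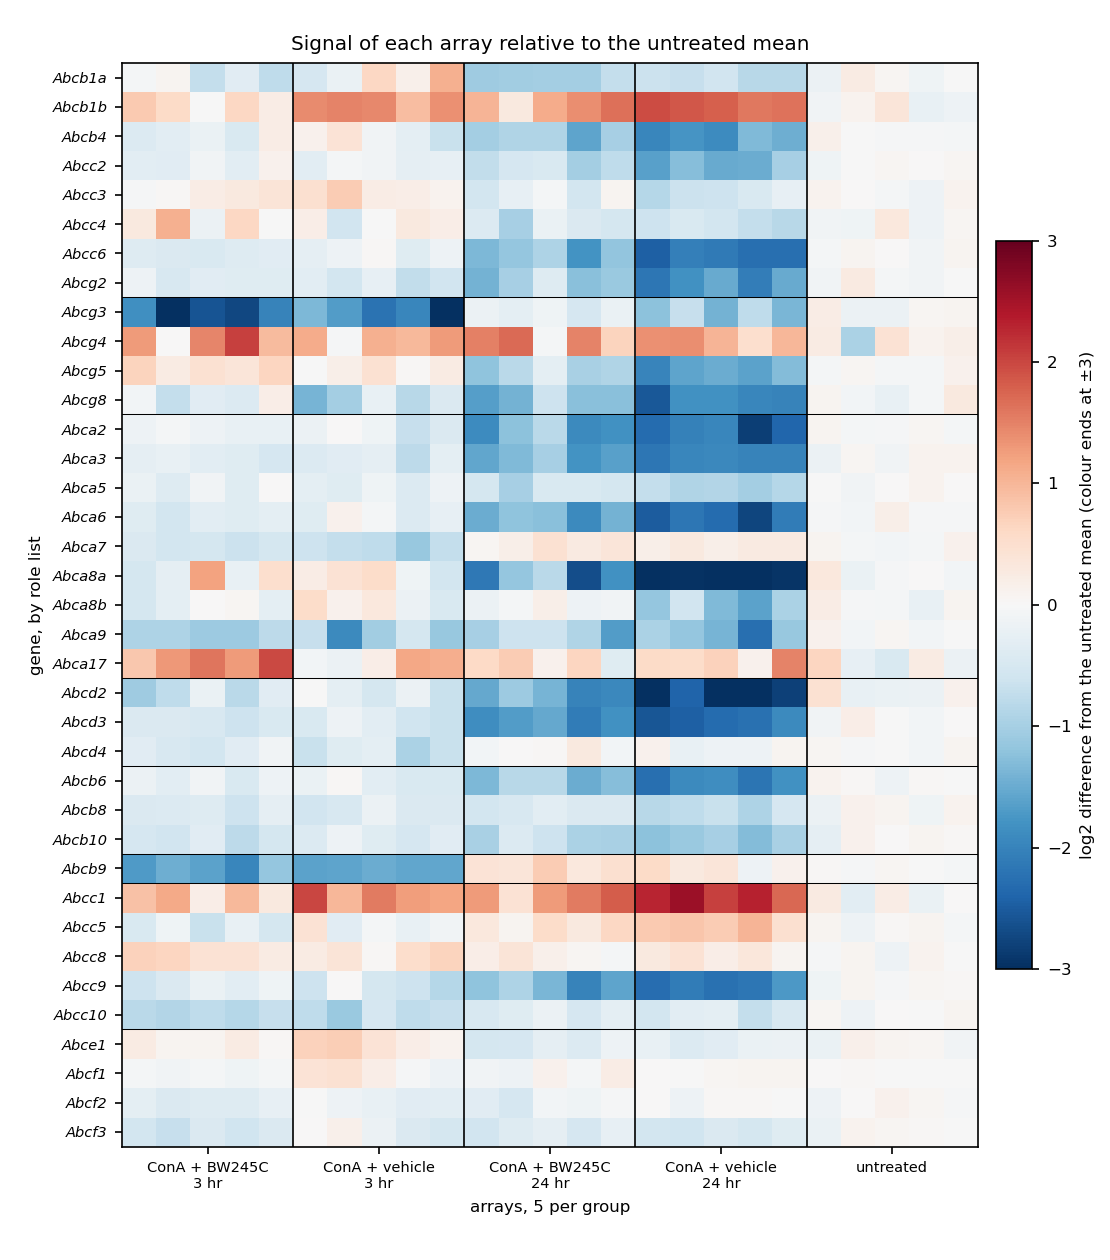
Log2 scaled signal of 37 ABC transporter genes (rows, by role list) on 25 arrays (columns, 5 per group), as the difference from the mean of the untreated arrays. The ConA + vehicle arrays at 24 hr are blue for 26 genes called lower and red for 7 called higher against untreated, and Abcb9 is blue on all 10 arrays taken at 3 hr.

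Early differences were sought by setting ConA + vehicle livers of 3 hr against untreated ones. Of 39 members, 6 were higher and 16 lower (56.4% called), beside 62% of all genes tested, of which 25% were called higher and 37% lower. The share of members called was near the background. The median change of the members was -0.20 on the log2 scale, and that of all genes was -0.09. The arrays of both groups did not overlap for 14 members, against 47.4% of all genes.

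The largest early decrease of a member above background in both groups belonged to Abcb9, a lysosomal peptide transporter related to the Tap proteins. Its log2 scaled signal was -0.75, -0.72, -0.63, -0.71 and -0.70 on the ConA + vehicle arrays at 3 hr, against 0.88, 0.82, 0.92, 0.84 and 0.80 on untreated arrays. No array of either group came near the other group, and the gene was 2.94-fold lower (log2 -1.55 ± 0.13, adjusted p = 1.97e-10). The change was -1.52 with the slide as a fixed block, -1.49 within slide 1 and -1.56 within slide 2. Each of these 2 slides had only 1 array in 1 of the groups.

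Of the D subfamily, which serves peroxisomes and lysosomes, Abcd3 (log2 -0.44 ± 0.12, adjusted p = 0.0025) and the lysosomal cobalamin transporter gene Abcd4 (-0.59 ± 0.11, adjusted p = 7.85e-05) were lower at 3 hr, while Abcd2 was not called.

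Abcg3, a rodent gene of the sterol transporter subfamily whose function is little known, was well above background on 5 of 5 untreated arrays and on no array at 3 hr. It had values of -5.03, -5.35, -5.90, -5.63 and -6.75 in ConA + vehicle livers and of -3.46, -3.85, -3.85, -3.62 and -3.59 in untreated livers. Its decrease was at least 1.67-fold, where each dim array was raised to its lowest signal well above background, and the fitted change was -2.06 ± 0.26 on the log2 scale (adjusted p = 2.6e-07). With normexp background correction it was -0.14 and not called (adjusted p = 0.124), and it was -1.34 within slide 2.

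Abcc1, the multidrug resistance protein that exports glutathione conjugates and leukotriene C4, rose early. Its values were -0.32, -1.32, -0.76, -1.06 and -1.12 in ConA + vehicle livers at 3 hr, against -2.05, -2.63, -2.09, -2.50 and -2.29 in untreated livers. All treated arrays lay above all untreated ones, with a 2.63-fold difference (log2 1.40 ± 0.24, adjusted p = 1.83e-05). The log2 change was 1.61 with the slide as a fixed block, 1.47 within slide 1 and 1.81 within slide 2, where it was not called (adjusted p = 0.0933).

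Abcb1b, which encodes one of the mouse P-glycoproteins that export drugs, rose in the same way. Its signal was -1.47, -1.41, -1.45, -1.98 and -1.54 in ConA + vehicle livers at 3 hr, against -3.01, -2.79, -2.53, -3.12 and -3.06 in untreated livers. The groups were apart on every array, and the gene was 2.51-fold higher (log2 1.33 ± 0.19, adjusted p = 2.28e-06), with a log2 change of 1.48 within slide 1 and 1.34 within slide 2. Its neighbour Abcb1a, the other drug-exporting P-glycoprotein gene, was not called (0.23 ± 0.21, adjusted p = 0.344). The ConA + vehicle arrays of Abcb1a spread over -0.91, -0.59, 0.23, -0.24 and 0.66, on both sides of the untreated values of -0.57, -0.16, -0.33, -0.52 and -0.40. Within slides the Abcb1a change went in opposite directions, 0.69 on slide 1 (adjusted p = 0.0116), which held 1 ConA + vehicle array, and -0.58 on slide 2 (adjusted p = 0.213).

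The other bile and drug exporters of hepatocytes moved little at 3 hr. Of the 8 genes of that list 2 were higher, 1 was lower and 5 were not called, beside 25% higher and 37% lower of all genes. Abcc3, a basolateral exporter of glucuronides, was 1.27-fold higher (log2 0.35 ± 0.14, adjusted p = 0.0347). Abcg2, an exporter of drugs and urate, was 1.40-fold lower (log2 -0.49 ± 0.16, adjusted p = 0.0104), although not with the slide as a fixed block (adjusted p = 0.0959). Abcb4, the phosphatidylcholine floppase of the canaliculus, had 6.06, 6.34, 5.81, 5.63 and 5.25 in ConA + vehicle livers and 6.08, 5.92, 5.88, 5.88 and 5.87 in untreated livers. These values overlapped, and the gene was not called (-0.11 ± 0.18, adjusted p = 0.614).

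Among the sterol half-transporters Abcg8 was lower (log2 -0.78 ± 0.21, adjusted p = 0.00288) at 3 hr, while its partner Abcg5 was not called (0.18 ± 0.14, adjusted p = 0.264). The 2 proteins form 1 sterol exporter of the canaliculus. With a fixed slide block Abcg8 was no longer called (log2 -0.52, adjusted p = 0.137). Abcg5 had 4.51, 4.69, 4.96, 4.55 and 4.76 in ConA + vehicle livers, against 4.45, 4.56, 4.45, 4.47 and 4.63 in untreated livers, and these ranges overlapped. Abcg4, a sterol exporter known from brain, was well above background on 4 of 5 ConA + vehicle arrays at 3 hr and on 1 of 5 untreated arrays. Its fitted difference of 0.89 ± 0.36 (adjusted p = 0.0376) is therefore set against a level that was mostly not well above background, and it was 0.78 and not called with the series matrix values (adjusted p = 0.0847).

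Of all genes tested 37% were called lower and 25% higher at 3 hr. In the A subfamily of lipid transporters none of 9 genes was higher at 3 hr at adjusted p under 0.05 in limma. Of these 9 genes 4 were lower, with 4 at an unadjusted p under 0.05. They were Abca9 (log2 -1.06 ± 0.24, adjusted p = 0.000467), Abca7 (-0.79 ± 0.09, adjusted p = 4.82e-08), Abca3 (-0.43 ± 0.12, adjusted p = 0.00338) and Abca5 (-0.26 ± 0.10, adjusted p = 0.0243). The second Abca5 probe, well above background on 25 arrays, changed by -0.01 at 3 hr, and the mean of both Abca5 probes was not called (adjusted p = 0.39). Abca9 was -0.18 with normexp background correction and not called (adjusted p = 0.0868). Abca7 acts in phospholipid efflux and phagocytosis, and Abca3 fills the lamellar bodies of the lung with surfactant lipid. Abca8a, with the largest later decrease, had a log2 change of 0.10 ± 0.33 at 3 hr (adjusted p = 0.799).

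Of the mitochondrial half-transporters Abcb8 (log2 -0.42 ± 0.09, adjusted p = 0.000401) and Abcb10 (-0.36 ± 0.11, adjusted p = 0.00869) were lower. Abcb8 had 2.50, 2.58, 2.89, 2.63 and 2.62 in ConA + vehicle livers, all below the untreated values of 2.90, 3.18, 3.14, 2.93 and 3.16. Abcc10, a drug exporter of the C subfamily, had 0.45, 0.09, 0.70, 0.45 and 0.53 against 1.27, 1.07, 1.22, 1.20 and 1.31 in untreated livers. Its arrays did not overlap either, and it was 1.71-fold lower (log2 -0.77 ± 0.10, adjusted p = 4.34e-07). Abcc9, a regulatory subunit of ATP-sensitive potassium channels, was lower (-0.52 ± 0.17, adjusted p = 0.0086), and Abcc8, the related subunit known from the pancreatic islet, was higher (0.38 ± 0.11, adjusted p = 0.00548). Abce1, which splits ribosomes after termination, was 1.35-fold higher (log2 0.43 ± 0.11, adjusted p = 0.00183), and Abcf2 was lower (-0.21 ± 0.09, adjusted p = 0.0385).

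The direction of all 22 members called at 3 hr was the same under a fixed slide block, where 15 of them were called. It was also the same within slides 1 and 2, where fewer were called and 1 of the groups had only 1 array. The fixed slide block ended the calls of Abca3, Abca5, Abcc8, Abcc9, Abcf2, Abcg2 and Abcg8, and normexp those of Abca5, Abca9, Abcf2 and Abcg3. The calls of Abca5, Abcc3, Abcf2 and Abcg4 were lost when single arrays were left out, with adjusted p of up to 0.13. With the series matrix values, the authors' own scaling, 3 members were higher and 23 lower. Marker levels here and below are the log2 of summed linear signals, so the brightest markers of a list weigh most. In these livers the summed neutrophil markers were 7.54 to 8.20 after ConA against 6.90 to 7.08 in untreated livers, and the hepatocyte markers 12.1 to 12.5 against 12.1 to 12.3. By gene, 5 of 7 neutrophil markers were higher (median log2 change 4.81) and 3 of 8 hepatocyte markers were higher, beside 25% of all genes. The part of these markers was not tested.

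What came later or lasted was asked with ConA + vehicle livers of 24 hr against untreated ones. Most transporter genes were lower. Of 39 members, 7 were higher and 28 lower (89.7% called), beside 68.9% of all genes tested, of which 29.8% were called higher and 39.1% lower. The members' median log2 change was -0.88, against -0.08 over all genes. The arrays of both groups did not overlap for 32 members, against 64% of all genes. Every role list with more than 1 member had decreases, and 4 members were not called, namely Abcb9, Abcd4, Abcf1 and Abcf2.

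**Figure D2:**
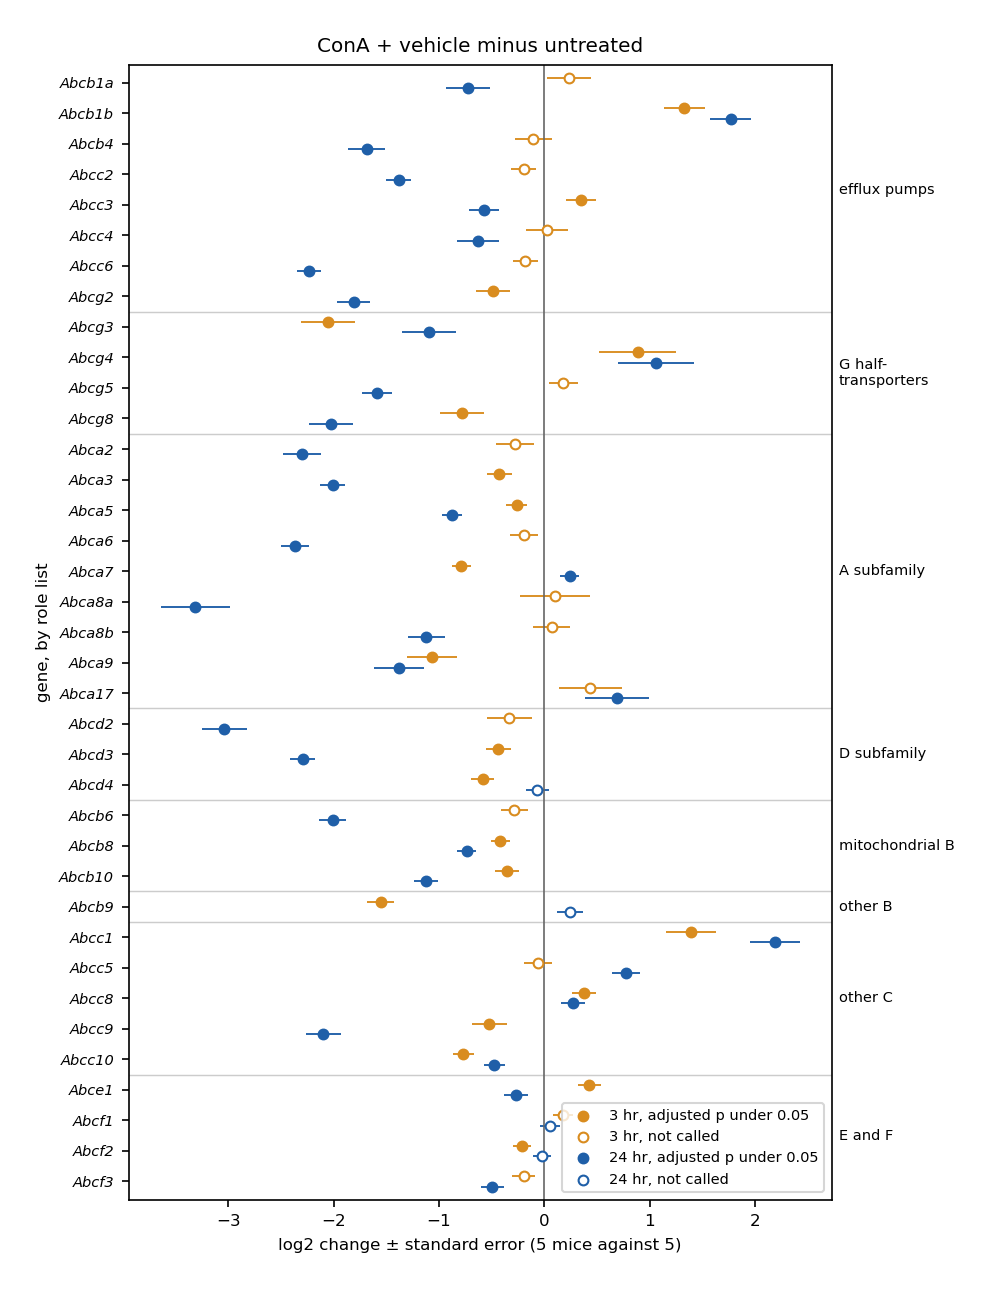
Log2 change of ConA + vehicle minus untreated livers for 37 ABC transporter genes at 3 hr and 24 hr (points, with standard errors from limma, 5 mice against 5), filled where the adjusted p was under 0.05. At 24 hr the points run between -3.31 for Abca8a and 2.19 for Abcc1, and 26 filled points lie left of 0.

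The largest decreases came from the A and D subfamilies. Abca8a is one of a row of neighbouring A subfamily genes on chromosome 11 (Abca8b, Abca8a, Abca9, Abca6 and Abca5), whose human relative ABCA8 has been linked to sterol export. Its log2 scaled signal was -4.27, -3.35, -3.44, -4.13 and -3.33 in ConA + vehicle livers at 24 hr, against -0.07, -0.59, -0.43, -0.38 and -0.48 in untreated livers. The groups were far apart on every array, and the decrease was 9.94-fold (log2 -3.31 ± 0.33, adjusted p = 5.36e-09). With the slide as a fixed block it was -2.42 on the log2 scale (adjusted p = 0.00148) and with normexp -2.12, in both cases a fold over 1.5 times smaller.

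Abca6 had 0.11, 0.44, 0.29, -0.16 and 0.52 in ConA + vehicle livers at 24 hr, against 2.56, 2.53, 2.78, 2.57 and 2.58 in untreated livers. It was 5.15-fold lower (log2 -2.36 ± 0.13, adjusted p = 4.18e-13), with no overlap of arrays. The other genes of the row were lower by less, Abca9 by -1.38 ± 0.24 (adjusted p = 1.88e-05), Abca8b by -1.12 ± 0.18 (adjusted p = 5.89e-06) and Abca5 by -0.88 ± 0.10 (adjusted p = 4.05e-08) on the log2 scale. With normexp Abca9 was lower by -0.60. Abca5 had a second probe, also well above background on all arrays, which differed by 0.12 on the log2 scale at 24 hr, so that its probes disagreed. Abca8b was not called with the slide as a fixed block (log2 -0.65, adjusted p = 0.0718).

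Abca2, a lipid transporter of lysosomes and endosomes, had -1.04, -0.76, -0.68, -1.54 and -1.11 in ConA + vehicle livers at 24 hr. Untreated livers had 1.36, 1.22, 1.23, 1.34 and 1.23, all above them. The decrease was 4.93-fold (log2 -2.30 ± 0.18, adjusted p = 1.12e-10), and a second probe gave -2.46. With the slide as a fixed block it was -1.64, a fold over 1.5 times smaller. Abca3 had 3.11, 3.32, 3.35, 3.28 and 3.26 against 5.11, 5.34, 5.18, 5.37 and 5.37 in untreated livers. It was 4.02-fold lower (log2 -2.01 ± 0.12, adjusted p = 9.26e-13), again with no overlap.

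Genes of peroxisomal half-transporters fell steeply at 24 hr. Abcd2, whose protein imports very long-chain and polyunsaturated fatty acyl-CoA, had -4.10, -3.30, -4.30, -4.27 and -3.71 in ConA + vehicle livers, against -0.44, -1.12, -1.10, -1.07 and -0.77 in untreated livers. It was 8.21-fold lower (log2 -3.04 ± 0.21, adjusted p = 1.39e-11), by -2.97 on the log2 scale with the slide as a fixed block and by -1.76 with normexp, where the fold was over 1.5 times smaller. Abcd3, the abundant peroxisomal membrane protein that imports branched acyl-CoA and bile acid intermediates, had 4.52, 4.63, 4.76, 4.83 and 5.15 against 6.97, 7.26, 7.06, 6.99 and 7.09 in untreated livers. It was 4.90-fold lower (log2 -2.29 ± 0.12, adjusted p = 1.07e-13).

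Of the 8 bile and drug exporters of hepatocytes, 7 fell at 24 hr and 1 rose, and the arrays of all 8 were apart. Of all genes tested 39.1% were called lower, 29.8% were called higher and 64% had arrays apart. Abcc6, a mostly hepatic exporter whose loss causes calcification in humans, had 2.60, 3.00, 2.94, 2.79 and 2.79 in ConA + vehicle livers, against 5.00, 5.14, 5.06, 4.95 and 5.14 in untreated livers. It was 4.70-fold lower (log2 -2.23 ± 0.11, adjusted p = 1.23e-13). Abcb4 had 3.97, 4.16, 4.03, 4.59 and 4.45 against 6.08, 5.92, 5.88, 5.88 and 5.87 in untreated livers, and was 3.21-fold lower (log2 -1.68 ± 0.18, adjusted p = 1.21e-08). Abcg2 fell 3.51-fold (log2 -1.81 ± 0.16, adjusted p = 6.33e-10). Abcc2, which exports bilirubin glucuronides into bile, fell 2.61-fold (log2 -1.38 ± 0.12, adjusted p = 5.46e-10). Abcc3 (-0.57 ± 0.14), Abcc4 (-0.63 ± 0.20), a basolateral exporter of bile acids, and Abcb1a (-0.72 ± 0.21) fell by less, and none of these 3 was called with the slide as a fixed block.

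Abcb1b was the exception among the hepatocyte exporters. Its values were -0.94, -1.05, -1.10, -1.33 and -1.26 in ConA + vehicle livers at 24 hr, above all untreated values of -3.01, -2.79, -2.53, -3.12 and -3.06. The gene was 3.41-fold higher (log2 1.77 ± 0.19, adjusted p = 2.39e-08) and was higher by 2.05 on the log2 scale with the slide as a fixed block and by 0.91 with normexp, a fold over 1.5 times smaller. Its neighbour Abcb1a had -1.05, -1.10, -0.98, -1.24 and -1.23, below all untreated values of -0.57, -0.16, -0.33, -0.52 and -0.40, and was 1.65-fold lower (log2 -0.72 ± 0.21, adjusted p = 0.00387). These genes encode closely related proteins, and cross-hybridisation of their probes was not tested.

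The other marked increase was that of Abcc1, with values of -0.03, 0.25, -0.26, 0.01 and -0.58 in ConA + vehicle livers at 24 hr. Untreated livers lay at -2.05, -2.63, -2.09, -2.50 and -2.29, below all of them. It was 4.56-fold higher (log2 2.19 ± 0.24, adjusted p = 1.97e-08), and with normexp by 1.43 on the log2 scale, a fold over 1.5 times smaller. Abcc5, an exporter of cyclic nucleotides, was 1.71-fold higher (log2 0.78 ± 0.14, adjusted p = 2.21e-05), although 3 other Abcc5 probes gave log2 changes of 0.18, 0.80 and 1.26. Abca17 had a difference of 0.69 ± 0.30 (adjusted p = 0.0465) with overlapping arrays. With the slide as a fixed block Abca17 had 0.0024 (adjusted p = 0.997) and with it as a random block 0.37 (adjusted p = 0.39). A second Abca17 probe, not well above background on any array, gave 0.23. Abca7, lower at 3 hr, was 1.18-fold higher at 24 hr (log2 0.24 ± 0.09, adjusted p = 0.019). Abcc9 was 4.28-fold lower (log2 -2.10 ± 0.17, adjusted p = 1.11e-10), and Abcc10 had 0.66, 0.90, 0.91, 0.50 and 0.73 and was 1.39-fold lower (log2 -0.48 ± 0.10, adjusted p = 0.000189).

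Abcg5 and Abcg8 were both lower at 24 hr. Abcg5 had 2.53, 2.94, 3.02, 2.91 and 3.22 in ConA + vehicle livers, well under the untreated values of 4.45, 4.56, 4.45, 4.47 and 4.63, a 3.01-fold decrease (log2 -1.59 ± 0.14, adjusted p = 6.78e-10). Abcg8 was 4.07-fold lower (log2 -2.03 ± 0.21, adjusted p = 1.39e-08), with values between -2.84 and -2.11 in ConA + vehicle livers against -0.52 to -0.02 in untreated livers, and with normexp the Abcg8 change was -1.40. Abcg3 had -4.91, -4.37, -5.10, -4.44 and -5.04, and was lower (log2 -1.10 ± 0.26, adjusted p = 0.000615), with 3 of the 5 arrays well above background. A fixed slide block ended the Abcg3 call (log2 -0.80, adjusted p = 0.16), and its change was -0.46 with normexp. Abcg4 was well above background on 5 of 5 ConA + vehicle arrays at 24 hr and on 1 of 5 untreated arrays, with a fitted difference of 1.06 ± 0.36 (adjusted p = 0.0127). This Abcg4 call was lost with normexp (9e-04, adjusted p = 0.994), with the slide as a fixed block (0.71, adjusted p = 0.294) and with it as a random block (0.89, adjusted p = 0.075).

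Mitochondrial half-transporters fell at 24 hr. Abcb6, which has been linked to porphyrin transport, was 4.03-fold lower (log2 -2.01 ± 0.13, adjusted p = 2.86e-12). Abcb10, which acts in haem synthesis, fell 2.18-fold (log2 -1.12 ± 0.11, adjusted p = 5.93e-09). Abcb8 had 2.24, 2.30, 2.38, 2.14 and 2.57 in ConA + vehicle livers, below every untreated array, and fell 1.67-fold (log2 -0.74 ± 0.09, adjusted p = 2.07e-07).

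The cytosolic E and F proteins changed least. Abcf1, a factor of translation initiation, had 3.83, 3.81, 3.88, 3.91 and 3.90 in ConA + vehicle livers at 24 hr and 3.83, 3.85, 3.80, 3.79 and 3.81 in untreated livers. Its change of 0.05 ± 0.10 was not called (adjusted p = 0.653). With the slide as a fixed block Abcf1 was called higher (0.30, adjusted p = 0.0113), but not with it as a random block (0.16, adjusted p = 0.179). Abcf3 was lower (-0.50 ± 0.11, adjusted p = 0.000326), with 2.50, 2.44, 2.61, 2.52 and 2.68 all below the untreated values, which ran between 2.85 and 3.15. Abce1 was lower by less (-0.27 ± 0.11, adjusted p = 0.0348). Abcb9, lower at 3 hr, was not called at 24 hr (0.24 ± 0.13, adjusted p = 0.0894), where its values of 1.42, 1.15, 1.22, 0.69 and 0.98 overlapped the untreated ones. With the slide as a fixed block it was called higher (0.60, adjusted p = 0.0206).

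With the slide as a fixed block 34 of 35 called members kept their direction and 24 were called, and Abcc8 turned to -0.06 (adjusted p = 0.803), against 0.27 as reported. The other calls it ended were those of Abca17, Abca8b, Abcb1a, Abcc10, Abcc3, Abcc4, Abce1, Abcf3, Abcg3 and Abcg4. The calls of Abcb1a, Abcc10, Abcc3, Abcc4, Abce1 and Abcf3 were also lost with the series matrix values. Leaving out single arrays ended the calls of Abca17, Abcc8, Abce1 and Abcg4, with adjusted p of up to 0.155. With the series matrix values 11 members were higher and 22 lower.

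Markers of liver cells moved in the same samples, in which 39.1% of all genes were called lower and 29.8% higher. Of 8 hepatocyte markers 8 were lower at 24 hr, and their summed level on the log2 scale was 11.2 to 11.6 in ConA + vehicle livers, against 12.1 to 12.3 in untreated livers. Neutrophil markers were higher in 5 of 7 genes, with a summed level of 8.06 to 8.64 against 6.90 to 7.08. Sinusoidal endothelial markers were lower in 5 and higher in 2 of 8, with 5.26 to 5.43 against 6.52 to 6.77, and Kupffer cell and macrophage markers were lower in 6 of 7, with 4.44 to 5.25 on 4 arrays against 6.47 to 7.14. T and NK lymphocyte markers were higher in 6 of 7 genes, although their summed levels overlapped (5.46 to 6.19 against 5.34 to 6.32). Cholangiocyte markers were higher in 2 and lower in 1 of 6, with 2.27 to 2.41 against 1.69 to 1.90. Stellate cell markers were lower in 3 of 6 and not called in 3, with 5.92 to 6.34 against 6.71 to 6.86. Of the markers looked for, Ly6g and Cd68 had no named probe and Ncr1 was well above background on 4 arrays. Their part in the changes of the ABC genes was not tested.

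The same livers were compared by time. ConA + vehicle at 24 hr against ConA + vehicle at 3 hr gave 8 higher and 24 lower members (82.1% called), beside 68.4% of all genes, of which 33.2% were called higher and 35.3% lower. The median was -0.68 for the members and -0.03 for all genes, and the arrays were apart for 26 members, against 52.3% of all genes. Abca8a had the largest difference (log2 -3.42 ± 0.33, adjusted p = 3.17e-09), and its 3 hr values of -0.16, 0.05, 0.15, -0.53 and -0.95 spanned the untreated ones. Abcd2 (-2.71 ± 0.21), Abca6 (-2.18 ± 0.13), Abcc6 (-2.05 ± 0.11) and Abca2 (-2.02 ± 0.18) followed, all with an adjusted p of at most 9.95e-10. With normexp Abca8a had -2.21 and Abcd2 -1.54, folds over 1.5 times smaller. Higher at 24 than at 3 hr were Abcb9 (1.80 ± 0.13, adjusted p = 1.46e-11), Abca7 (1.03 ± 0.09, adjusted p = 4.7e-10) and Abcd4 (0.52 ± 0.11, adjusted p = 0.000246), genes that had been low at 3 hr. All 32 called members kept their direction within slide 3, which held only 1 ConA + vehicle array of 24 hr and 2 of 3 hr. With the series matrix values 11 were higher and 19 lower.

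**Figure D3:**
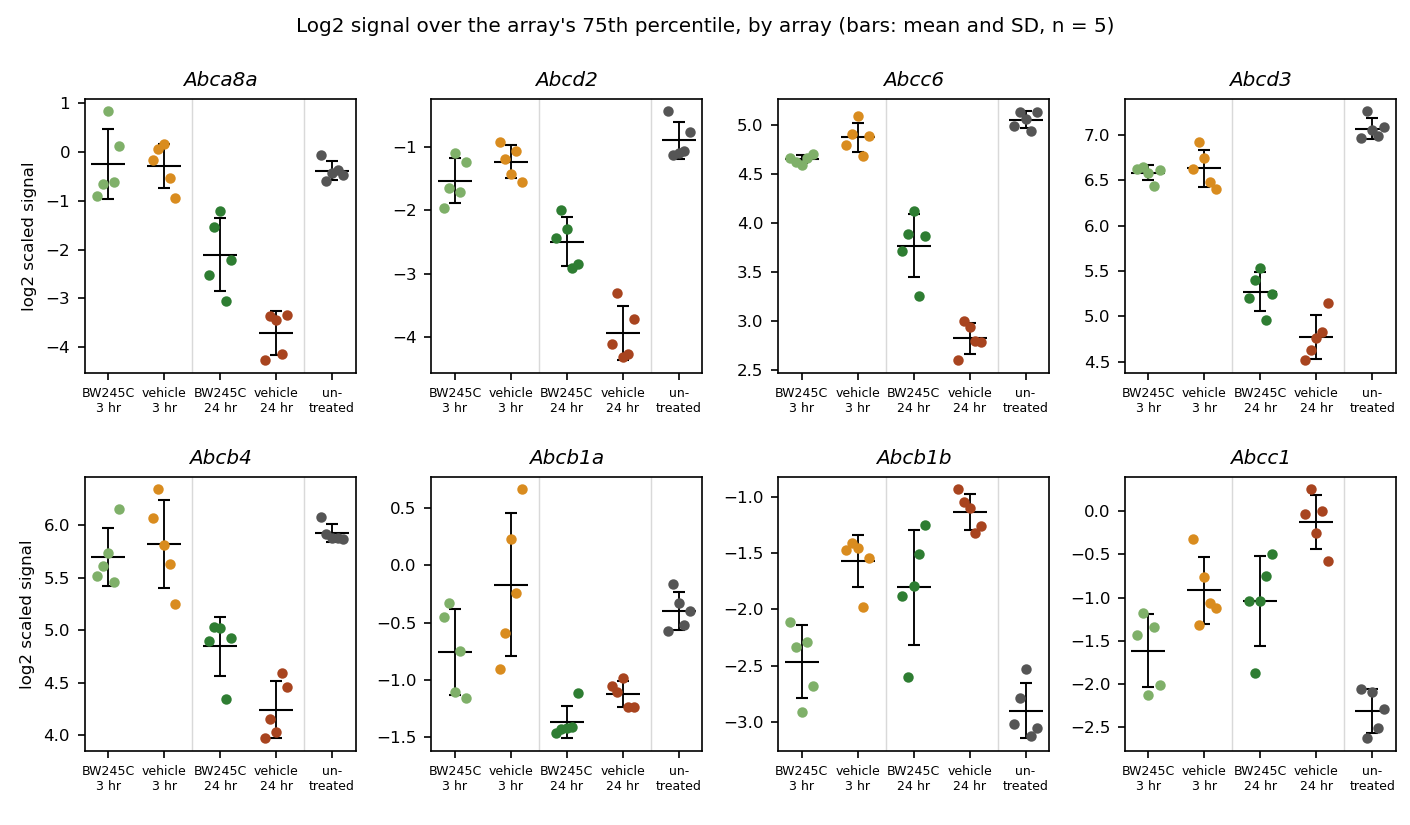
Log2 scaled signal of 8 ABC transporter genes on each array (points), with the group mean and SD (bars, n = 5), for ConA + BW245C and ConA + vehicle at 3 hr, the same at 24 hr, and untreated livers. Abca8a, Abcd2 and Abcc6 show no overlap between BW245C and vehicle arrays at 24 hr, and Abcb1b shows none at 3 hr.

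BW245C was next set against vehicle in ConA-injected mice, which asked what the agonist changed. At 3 hr, 2 members were higher and 5 lower in ConA + BW245C livers (17.9% called), beside 28.6% of all genes, of which 11.8% were called higher and 16.9% lower. The members' share lay below the background, the members' median log2 change was -0.02 and that of all genes -0.04. The arrays were apart for 1 member, Abcb1b, against 13.5% of all genes.

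Abcb1b had -2.12, -2.33, -2.91, -2.29 and -2.68 in ConA + BW245C livers at 3 hr, against -1.47, -1.41, -1.45, -1.98 and -1.54 in ConA + vehicle livers. Every BW245C array was lower than every vehicle array, and the difference was 1.86-fold (log2 -0.90 ± 0.19, adjusted p = 0.00173). It was -0.76 with the slide as a fixed block (adjusted p = 0.035) and -0.71 within slide 3, where it was not called (adjusted p = 0.155). It was also the only member whose call at 3 hr held when any single array was left out.

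Abcc1 was lower too, with -1.43, -1.18, -2.12, -1.34 and -2.01 in ConA + BW245C livers at 3 hr against -0.32, -1.32, -0.76, -1.06 and -1.12 in ConA + vehicle livers. The arrays overlapped, and the 1.62-fold difference (log2 -0.70 ± 0.24, adjusted p = 0.0298) was not called with the slide as a fixed block (adjusted p = 0.254). Abcb1a had -0.45, -0.33, -1.10, -0.75 and -1.16 against -0.91, -0.59, 0.23, -0.24 and 0.66 with vehicle, and was lower (log2 -0.59 ± 0.21, adjusted p = 0.0378). The Abcb1a difference was -0.88 with the slide as a fixed block (adjusted p = 0.0301).

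Abcf3 had 2.49, 2.36, 2.60, 2.45 and 2.62 in ConA + BW245C livers at 3 hr, against 3.05, 3.21, 2.88, 2.60 and 2.52 in ConA + vehicle livers (log2 -0.35 ± 0.11, adjusted p = 0.0204). Within slide 3 the Abcf3 difference was -0.06. Abca17, known from testis, had 2.54, 3.03, 3.33, 3.00 and 3.70 in ConA + BW245C livers against 1.65, 1.55, 1.92, 2.89 and 2.81 in ConA + vehicle livers, and was 1.95-fold higher (log2 0.96 ± 0.30, adjusted p = 0.0209). It was 0.40 with the slide as a fixed block (adjusted p = 0.446) and 0.27 within slide 3, a fold over 1.5 times smaller within that slide. A second Abca17 probe, not well above background on any array, changed by -0.06. Abca7 was higher (0.25 ± 0.09, adjusted p = 0.0356), although not with normexp (0.17, adjusted p = 0.139).

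All 7 members called at 3 hr kept their direction within slide 3, which held all 5 BW245C arrays and 2 vehicle arrays, but none was called there by limma, where 5 members were higher and 2 lower at an unadjusted p under 0.05. Leaving out single arrays ended every call but that of Abcb1b, among them those of Abca17, Abca7, Abcb1a, Abcc1 and Abcf3, with adjusted p of up to 0.107. The direction of the members as a whole at 3 hr depended on the scaling, as 5 were higher and 2 lower with the series matrix values, and 1 higher and 5 lower after normexp background correction. T and NK lymphocyte markers summed to 6.32 to 6.87 with BW245C against 5.58 to 6.61 with vehicle at 3 hr. By gene, 2 of 7 were higher and 1 was lower (median log2 change 0.03), beside 11.8% and 16.9% of all genes. Neutrophil markers summed to 7.51 to 8.10 against 7.54 to 8.20, and hepatocyte markers to 12.1 to 12.4 against 12.1 to 12.5. The part of these markers at 3 hr was not tested.

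At 24 hr the agonist comparison was one-sided for the transporters. In ConA + BW245C livers 21 members were higher and 3 lower (61.5% called) than in ConA + vehicle livers, beside 26.6% of all genes, of which 17.6% were called higher and 8.95% lower. The members' median log2 change was 0.33, against 0.01 over all genes. The arrays were apart for 14 members, against 17.4% of all genes. These values share the 5 vehicle arrays at 24 hr with the comparison against untreated livers. Untreated means are therefore set beside them for Abca8a, Abcd2, Abca8b and Abcc6. Other untreated levels are only those given above.

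**Figure D4:**
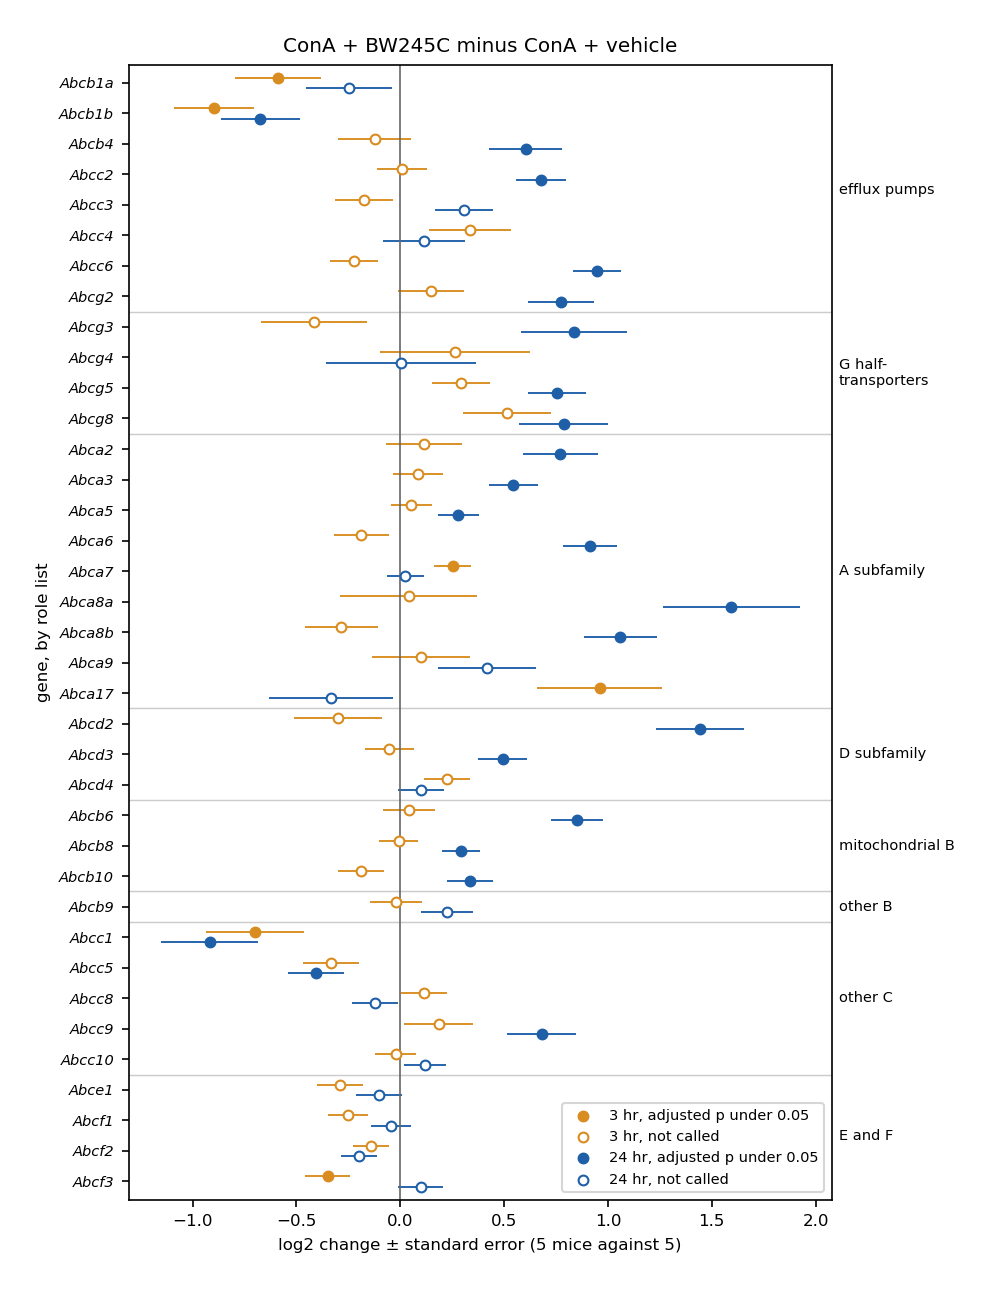
Log2 change of ConA + BW245C minus ConA + vehicle livers for 37 ABC transporter genes at 3 hr and 24 hr (points, with standard errors from limma, 5 mice against 5), filled where the adjusted p was under 0.05. At 24 hr 19 filled points lie right of 0, up to 1.59 for Abca8a, and 3 lie left of it.

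Abca8a had -2.53, -1.55, -1.21, -3.06 and -2.21 in ConA + BW245C livers at 24 hr, against -4.27, -3.35, -3.44, -4.13 and -3.33 in ConA + vehicle livers. All BW245C arrays were above all vehicle arrays, and below the untreated mean of -0.39. The gene was 3.02-fold higher with BW245C (log2 1.59 ± 0.33, adjusted p = 0.00106), by 1.39 on the log2 scale with the slide as a fixed block and by 1.18 within slide 4. With normexp it was higher by 0.86, a fold over 1.5 times smaller.

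Abcd2 had -2.43, -1.99, -2.29, -2.91 and -2.84 in ConA + BW245C livers, against -4.10, -3.30, -4.30, -4.27 and -3.71 in ConA + vehicle livers, with an untreated mean of -0.90. It was 2.72-fold higher with BW245C (log2 1.44 ± 0.21, adjusted p = 4.46e-05), by 1.49 with the slide as a fixed block and by 1.45 within slide 4 (adjusted p = 0.0517). With normexp it was higher by 0.74, a fold over 1.5 times smaller.

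Abca8b had 2.67, 2.79, 3.01, 2.69 and 2.73 in ConA + BW245C livers at 24 hr, against 1.68, 2.27, 1.51, 1.24 and 1.89 in ConA + vehicle livers. Untreated livers averaged 2.84 ± 0.17 (SD, n = 5), and ConA + BW245C livers 2.78 ± 0.14 (SD, n = 5). It was 2.08-fold higher with BW245C than with vehicle (log2 1.06 ± 0.18, adjusted p = 0.00015). Abcc6 had 3.71, 3.89, 4.12, 3.26 and 3.87 with BW245C against 2.60, 3.00, 2.94, 2.79 and 2.79 with vehicle, and was 1.93-fold higher (log2 0.95 ± 0.11, adjusted p = 9.11e-06). Its BW245C arrays lay above all vehicle arrays and below the untreated mean of 5.06.

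Abca6 was 1.88-fold higher with BW245C (log2 0.91 ± 0.13, adjusted p = 3.92e-05), with 1.12, 1.40, 1.36, 0.71 and 1.18 against 0.11, 0.44, 0.29, -0.16 and 0.52 with vehicle. Abca2 (log2 0.77 ± 0.18, adjusted p = 0.00308) had -0.60, 0.05, 0.46, -0.63 and -0.55 against -1.04, -0.76, -0.68, -1.54 and -1.11 with vehicle. Abca3 (0.55 ± 0.12, adjusted p = 0.00162) had 3.71, 3.96, 4.27, 3.48 and 3.64 against 3.11, 3.32, 3.35, 3.28 and 3.26 with vehicle. In these 3 lipid transporter genes the BW245C arrays were all above the vehicle arrays. In all, 6 of 9 A subfamily genes were higher, beside 17.6% of all genes, and 3 were not called, namely Abca7, Abca9 and Abca17. Abca5 was counted among the higher ones, although its second probe changed by 0.02. The mean of both Abca5 probes was not called in limma (log2 0.15, adjusted p = 0.442).

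Among the hepatocyte exporters 4 of 8 were higher and 1 was lower with BW245C at 24 hr, beside 17.6% and 8.95% of all genes. The higher ones besides Abcc6 were Abcg2 (log2 0.77 ± 0.16, adjusted p = 0.000989), Abcc2 (0.68 ± 0.12, adjusted p = 0.000264) and Abcb4 (0.60 ± 0.18, adjusted p = 0.0137). Abcb4 had 4.90, 5.03, 5.02, 4.35 and 4.93 with BW245C, against 3.97, 4.16, 4.03, 4.59 and 4.45 with vehicle. Its replicate 4 with BW245C lay within the vehicle range, and the gene was not called with the slide as a fixed block (log2 0.43, adjusted p = 0.0568). Abcb1b was 1.59-fold lower with BW245C (log2 -0.67 ± 0.19, adjusted p = 0.0122), with -1.88, -2.60, -1.79, -1.51 and -1.25 against -0.94, -1.05, -1.10, -1.33 and -1.26 with vehicle. Abcb1a was not called (-0.25 ± 0.21, adjusted p = 0.401), with -1.46, -1.43, -1.42, -1.41 and -1.12, nor were Abcc3 (0.31 ± 0.14, adjusted p = 0.111) and Abcc4 (0.11 ± 0.20, adjusted p = 0.708).

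The sterol half-transporters Abcg5 and Abcg8 were both higher with BW245C. Abcg5 had 3.32, 3.69, 4.22, 3.55 and 3.61 against 2.53, 2.94, 3.02, 2.91 and 3.22 with vehicle, and was 1.69-fold higher (log2 0.76 ± 0.14, adjusted p = 0.000415). Abcg8 was 1.72-fold higher (log2 0.79 ± 0.21, adjusted p = 0.00852). Abcg3 had -3.85, -3.97, -3.81, -4.18 and -3.87 against -4.91, -4.37, -5.10, -4.44 and -5.04 with vehicle (log2 0.84 ± 0.26, adjusted p = 0.0187), well above background on all 5 BW245C arrays and on 3 vehicle arrays. With a fixed slide block Abcg3 was no longer called (log2 0.66, adjusted p = 0.0842).

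Peroxisomal Abcd3 was higher with BW245C (log2 0.49 ± 0.12, adjusted p = 0.00321), with 5.20, 5.40, 5.54, 4.96 and 5.25 against 4.52, 4.63, 4.76, 4.83 and 5.15 with vehicle. Mitochondrial genes were higher, Abcb6 by 0.85 ± 0.13 (adjusted p = 5.21e-05), Abcb10 by 0.34 ± 0.11 (adjusted p = 0.0297) and Abcb8 by 0.29 ± 0.09 (adjusted p = 0.0219) on the log2 scale.

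Lower with BW245C at 24 hr, beside Abcb1b, were Abcc1 and Abcc5. Abcc1 had -1.04, -1.88, -1.04, -0.74 and -0.50 against -0.03, 0.25, -0.26, 0.01 and -0.58 with vehicle. One BW245C array lay above the lowest vehicle array, and the gene was 1.89-fold lower (log2 -0.92 ± 0.24, adjusted p = 0.00577), by -1.08 within slide 4. Abcc5 was 1.32-fold lower (log2 -0.41 ± 0.14, adjusted p = 0.0294), and Abcc9 was higher (0.68 ± 0.17, adjusted p = 0.00386). No member of the E and F list was called by limma at 24 hr, beside 26.6% of all genes, and 1 of 4 had an unadjusted p under 0.05. With the slide as a fixed block Abce1 (log2 -0.26, adjusted p = 0.025), Abcf1 (-0.20, adjusted p = 0.0117) and Abcf2 (-0.30, adjusted p = 0.00923) were called lower. Abcf2 was also called lower with the slide as a random block (-0.24, adjusted p = 0.027).

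All 24 members called kept their direction within slide 4, on 3 BW245C and 4 vehicle arrays, yet none was called there (adjusted p of 0.0517 to 0.264), with 17 members higher and 5 lower at an unadjusted p under 0.05 in limma. The fixed slide block ended the calls of Abca5, Abcb4, Abcb8 and Abcg3, and the series matrix values those of Abca5, Abcb8 and Abcb10. Leaving out single arrays ended the calls of Abca5, Abcb10, Abcb8 and Abcc5, with adjusted p of up to 0.103. In the same livers the summed hepatocyte markers were 11.3 to 11.8 with BW245C against 11.2 to 11.6 with vehicle, and the neutrophil markers 7.13 to 7.73 against 8.06 to 8.64. The part of these in the changes was not tested.

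Whether the agonist difference itself changed between 24 and 3 hr was tested as an interaction, the BW245C effect at 24 hr minus that at 3 hr. It was higher at 24 hr for 16 members and lower for 1 (43.6% called), beside 30% of all genes, of which 19.3% were called higher and 10.8% lower. The members' median was 0.45 and that of all genes 0.10. Abcd2 had the largest value (log2 1.75 ± 0.30, adjusted p = 0.000399), from an effect of -0.30 ± 0.21 at 3 hr, which was not called, and 1.44 ± 0.21 at 24 hr. Abca8a (1.55 ± 0.47, adjusted p = 0.0169), Abca8b (1.34 ± 0.25, adjusted p = 0.000749), Abcc6 (1.17 ± 0.16, adjusted p = 7.21e-05) and Abca6 (1.10 ± 0.19, adjusted p = 0.000363) followed. With normexp the Abcd2 value was 0.95 and that of Abca8a 0.87 (adjusted p = 0.05, not called), and Abca8a had 0.72 with the slide as a fixed block (adjusted p = 0.47). Abcg3, counted among the 16, was well above background on no array of either 3 hr group and is given no size here. Abca17 was the one with a negative value (-1.29 ± 0.43, adjusted p = 0.0269), which was -0.30 with the slide as a fixed block (adjusted p = 0.733). Its second probe, not well above background on any array, gave 0.14. Abcb1b (0.22 ± 0.27, adjusted p = 0.555) and Abcc1 (-0.22 ± 0.33, adjusted p = 0.64), lower with BW245C at both times, were not called.

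With the slide as a fixed block 4 of these 17 interaction calls held, and 7 with the slide as a random block, all 17 keeping their direction. Leaving out single arrays ended the calls of Abca17, Abca3, Abcb4, Abcf3 and Abcg2, among others (adjusted p of up to 0.0881). With the series matrix values 9 were higher and 2 lower.

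Genes that work beside the transporters were counted by list. At 24 hr after ConA, 9 of 10 hepatic uptake and solute carrier genes tested were lower and 1 was higher, with a median log2 change of -2.45, beside 39.1% lower and 29.8% higher of all genes tested. Slco1a4, an uptake carrier for organic anions, had -4.37 ± 0.21 (adjusted p = 3.72e-14), and Slc47a1, an exporter of organic cations, -3.29 ± 0.14 (adjusted p = 1.14e-14). With BW245C at 24 hr 7 were higher and 1 lower, with a median of 0.92, beside 17.6% and 8.95% of all genes. Among the higher were Slco1a4 (1.66 ± 0.21, adjusted p = 1.13e-05) and Slco1b2 (1.44 ± 0.18, adjusted p = 1.03e-05).

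Of 14 nuclear receptors and regulators of transporter genes 12 were lower at 24 hr after ConA (median -0.92) and none was higher at adjusted p under 0.05 in limma, with 12 at an unadjusted p under 0.05, beside 39.1% lower and 29.8% higher of all genes. The bile acid receptor gene Nr1h4 had -1.43 ± 0.13 (adjusted p = 2.2e-09) and the xenobiotic receptor gene Nr1i3 -1.37 ± 0.16 (adjusted p = 5.77e-08). With BW245C at 24 hr 6 of 14 were higher (17.6% of all genes), among them Nr1i3 (1.15 ± 0.16, adjusted p = 2.44e-05) and Nr1h4 (0.75 ± 0.13, adjusted p = 0.000334). At 3 hr after ConA 9 were lower and 3 higher, beside 37% and 25% of all genes, with Nr0b2 at -4.36 ± 0.28 (adjusted p = 4.17e-12) and Ppara at -1.60 ± 0.24 (adjusted p = 3.48e-06).

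Peroxisomal acyl-CoA oxidation and import genes were lower in 11 of 12 at 24 hr after ConA (median -1.34), and 6 of 12 were higher with BW245C (median 0.37). Of all genes 39.1% were lower after ConA and 17.6% higher with BW245C at that time. Iron-sulfur cluster and haem synthesis genes were lower in 11 of 12 (median -0.92), and 6 of 12 were higher with BW245C (median 0.32), beside the same shares of all genes. Examples were the thiolase gene Acaa1b (-3.12 ± 0.21, adjusted p = 1e-11) and the ferrochelatase gene Fech (-1.18 ± 0.09, adjusted p = 1.25e-10) after ConA. Ribosome recycling and initiation genes, the company of Abce1 and Abcf1, were higher in 7 and lower in 2 of 12 at 3 hr after ConA (median 0.31), and higher in 4 and lower in 4 at 24 hr (median 0.13). These called shares of 75% and 66.7% were near those of all genes, 62% and 68.9%.

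A few ABC genes carry other names and were no members. Tap2 and Tap1 form the peptide transporter of antigen presentation. Tap1 was higher at 3 hr after ConA (log2 3.40 ± 0.16, adjusted p = 1.97e-14) and at 24 hr (2.79 ± 0.16, adjusted p = 6.01e-13). Tap2 was higher at 3 hr (1.21 ± 0.10, adjusted p = 7.55e-10) and at 24 hr (2.03 ± 0.10, adjusted p = 1.36e-13). Both were lower with BW245C than with vehicle at 3 hr, Tap1 by -0.83 ± 0.16 (adjusted p = 0.000667) and Tap2 by -0.64 ± 0.10 (adjusted p = 0.000145). Cftr, the chloride channel of bile duct cells, was higher at 3 hr after ConA (0.67 ± 0.21, adjusted p = 0.00774) and not called at 24 hr (0.27 ± 0.21, adjusted p = 0.245).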

How the data were processed

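Liver RNA of 25 mice was hybridised to 1-colour Agilent arrays, 1 per mouse. Per the file headers, the deposited intensity values are Agilent Feature Extraction 10.7.3.1 processed signals, background-subtracted and detrended (the submitters' processing notes name version 9.1), on probes designed on mm9. In the deposited series matrix each array's intensity is multiplied by a single factor and left linear (column medians of 52.7 to 105.7), and the rule behind the factor is not given in the sources used here.

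Here log2 was taken of the processed signal minus the array's 75th percentile, without control spots and outlier flags, with spots of a probe averaged. Of 55681 probes, 26582 were named through their RefSeq accession (GRCm38.p6 gene table) and 29099 were not. Genes needed a probe well above background on 5 arrays, and the brightest probe stood for the gene. Groups were compared with limma 3.58.1 in R 4.3.3 over all 25 arrays, two-sided, with Benjamini-Hochberg adjustment over 15104 genes, and the fit was tested on simulated data. Tables and figures used Python 3.11.15, pandas 2.3.3 and matplotlib 3.10.9.

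Of the 39 members, 2 are counted but not reported here, and 37 are plotted. Any other member could be named. Values by array are given for the 5 called members with the largest change in each comparison and the brightest of each role list. The members and lists were chosen with earlier results of these data known. Alternatives were other background correction, scaling, filters, probe summaries, thresholds and samples, the series matrix, the slide and the replicate number as blocks, and leaving out each array. Normexp used the median signals. The age of the mice and the composition of the vehicle are not given in the sources used here.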

Additional observations from a re-analysis of the deposited data

Results flagged for a closer look

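Among 195 groups of 5 arrays, 1 for each member and group, 15 (7.69%, in 12 members) held an array whose gap to the nearest of the others exceeded Dixon's critical share of the range, where chance gives about 1 in 20. Values are log2 scaled signals. With ConA + BW245C at 3 hr, Abca6 was 2.05 in replicate 2 and Abcd3 was 6.44 in replicate 4, both low. With ConA + vehicle at 3 hr, replicate 4 was low for Abca3 at 4.49 and for Abcb1b at -1.98, and replicate 2 was low for Abcg4 at -4.87. With ConA + BW245C at 24 hr, Abca5 was low at -2.44 in replicate 2, Abcb4 low at 4.35 in replicate 4 and Abcb1a high at -1.12 in replicate 5. With ConA + vehicle at 24 hr, Abcf2 was low at 1.71 in replicate 2 and Abcg8 low at -2.84 in replicate 1. In untreated livers, replicate 1 was low for Abcb10 at 2.46 and high for Abcb4 at 6.08, replicate 2 was high for Abcg2 at 4.18 and low for Abcg4 at -5.80, and replicate 3 was high for Abca6 at 2.78.

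The BW245C effect differed between the times by the interaction test in 17 members, of which 15 are given. The effect at 24 hr minus that at 3 hr, on the log2 scale, was 1.75 for Abcd2, 1.55 for Abca8a, 1.34 for Abca8b, 1.17 for Abcc6 and 1.10 for Abca6. It was 0.81 for Abcb6, 0.73 for Abcb4, 0.67 for Abcc2, 0.63 for Abcg2, 0.55 for Abcd3, 0.53 for Abcb10, 0.46 for Abca3 and 0.45 for Abcf3. Abca17 had -1.29. The fitted value of Abcg3 was 1.25, but the gene was well above background on no array of either 3 hr group, so that this value has no measured effect at 3 hr behind it.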

How the results depend on the processing

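Of 681 values of member counts and medians under the alternatives, 623 stayed near their value. Of 8835 values of single members 8267 kept their call or their lack of one, while 429 lost a call, 134 gained one and 5 changed sign. Sign changes were counted only in members called as reported, so those of members not called are not among the 5. The sign changes were Abcc8 at 24 hr after ConA with the slide as a fixed block (-0.0572), Abce1 there with the series matrix (0.0755), and, between 24 and 3 hr, Abcb8 (0.13) and Abcf3 (0.15) with the series matrix and Abcg3, not well above background on any 3 hr array, with normexp (-0.33). The causes were not tested.

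The series matrix moved the median of all genes by -0.11 at 3 hr and 0.34 at 24 hr after ConA, 0.45 between the times, 0.11 and -0.11 for BW245C at 3 and 24 hr, and -0.23 for the interaction. Normexp and quantile normalization moved it by -0.13 and 0.10 between the times. With the series matrix the members' median was -0.53 at 24 hr after ConA, -0.23 between the times and 0.22 for the interaction. Normexp gave -0.67 at 24 hr after ConA. The series matrix gave 3 members higher at 3 hr and 11 at 24 hr after ConA, 5 higher and 2 lower with BW245C at 3 hr, and 9 higher and 2 lower in the interaction.

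For BW245C at 3 hr, 1 was higher with normexp, without a filter, and with either slide block, and 0 within slide 3, with only the groups compared (3 at an unadjusted p under 0.05 in limma) or at a threshold of 0.01. Lower were 3 without a filter, 2 with either slide block, 1 with only the groups compared or at 0.01, and 0 within slide 3. For BW245C at 24 hr, 6 were lower with the slide as a fixed block, 1 at 0.01, and 0 were higher and 0 lower within slide 4 (17 and 5 at an unadjusted p under 0.05). At 3 hr after ConA, 10 were lower with the slide as a fixed block. Fewer members were called within slides 1 and 2, each of which had only 1 array in 1 of the groups. At 24 hr 3 were higher at 0.01. Between the times fewer were called within slide 3, which held 1 ConA + vehicle array of 24 hr. In the interaction 4 were higher with the slide as a fixed block, with a median of 0.21, 7 with it as a random block and 7 at 0.01, both with 0 lower, and 2 were lower with quantile normalization.

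Leaving out each array gave, for BW245C at 24 hr, 18 to 21 higher, 2 to 4 lower and a median of 0.29 to 0.38. For BW245C at 3 hr it gave 0 to 3 higher, 2 to 8 lower and a median of -0.06 to 0.04. At 24 hr after ConA it gave 5 to 7 higher, 27 to 28 lower and -0.92 to -0.84, and at 3 hr 4 to 6 higher, 14 to 17 lower and -0.24 to -0.18. Between the times it gave 7 to 9 higher, 23 to 25 lower and -0.70 to -0.63, and in the interaction 11 to 19 higher, 0 to 1 lower and 0.35 to 0.50. Calls that rested on 1 array were Abcg4 at 24 hr after ConA without untreated replicate 2 (adjusted p = 0.0508) and Abcc10 between the times without ConA + vehicle 3 hr replicate 2 (adjusted p = 0.0513).

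The replicate numbers did not pair the arrays, with a median correlation of -0.01 (-0.36 to 0.34) between same-numbered arrays. With the replicate block, 21 members were higher and 3 lower for BW245C at 24 hr, 3 and 4 at 3 hr, 6 and 27 at 24 hr and 6 and 17 at 3 hr after ConA, 7 and 25 between the times, and 18 and 1 in the interaction.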
